A study of Mus musculus with 12 samples.

Results

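The genes described here encode the subunits of the proteasome, the chamber that degrades ubiquitin-tagged proteins, in 2 kinds of myeloid cell sorted from the mouse lung. They were chosen by symbol, as every Psma, Psmb, Psmc, Psmd or Psme gene with a number in the deposited counts. This gave 43 of 26608 gene rows, and all 43 were among the 14254 genes with enough counts to be tested. The immunoproteasome genes Psmb8, Psmb9, Psmb10, Psme1 and Psme2 formed a subset of 5.

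The core particle of the proteasome is a barrel of outer alpha rings (Psma genes) and inner beta rings (Psmb genes), and the beta rings hold the proteolytic sites. A regulatory particle of ATPases (Psmc genes) and non-ATPase subunits (Psmd genes) binds ubiquitinated proteins, unfolds them and feeds them into the core. In immune cells and after interferon, Psmb8, Psmb9 and Psmb10 replace the constitutive catalytic subunits Psmb5, Psmb6 and Psmb7, and Psme1 and Psme2 form a cap that opens the core, which favours peptides for MHC class I.

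RNA was sequenced from 12 libraries of about 250 sorted cells each, 3 per group. Interstitial macrophages (IM) reside in the lung tissue, and nonclassical monocytes (NCM; "RM" in the sample titles) patrol blood vessels. All mice were C57Bl/6 and had 3 weeks of hypoxia together with SU5416, a VEGF receptor inhibitor, once a week, so that no group was unexposed. Ages were not given in the sources used here. Mice of the deleted groups (CrePos) are labelled Hif1α Δ/Δ and carried Cre under Cx3cr1, and the control groups (CreNeg) carried floxed Hif1α without Cre. Hif1a encodes the oxygen-regulated subunit of HIF-1. Cx3cr1 is active in both cell types and in other myeloid cells, so the deletion was not limited to the sorted cells, and no control carried Cre alone. Whether libraries came from separate animals is not stated, so p-values measure the spread between these libraries, which may be technical.

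Libraries held 5332600 to 14099509 gene counts. Levels are given as CPM, counts scaled to a common library size after TMM normalization. Counted over the whole gene, Hif1a was at 212 to 243 CPM in IM control against 192 to 204 in IM deleted libraries, and at 207 to 246 in NCM control against 150 to 212 in NCM deleted libraries, which does not measure loss of single exons. The 14 IM markers summed to 23254 to 26379 CPM in IM control and 13904 to 18312 in IM deleted libraries, against 1648 to 4734 in NCM libraries. The 11 NCM markers summed to 8550 to 13851 CPM in NCM control and 3670 to 7143 in NCM deleted libraries, against 1470 to 2420 in IM libraries. No marker of either list lacked counts in a group. Reads outside annotated exons made up 38.5 to 44.2% of exonic plus non-exonic reads in IM control against 59.2 to 69.8% in IM deleted libraries. In NCM they made up 58.1 to 66.8% in control and 55.1 to 72.7% in deleted libraries. The NCM deleted library RM649 had the fewest gene counts and the fewest genes detected, 10526, and the NCM deleted library RM661 had the most genes detected, 17179. Bulk counts cannot tell fewer cells of a type from less RNA per cell.

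Nearly all subunit genes were measured in every group, and their levels differed widely. Between 41 and 43 of the 43 genes had a count in each library. Per kilobase of exon, which allows genes to be compared, the highest mean level in IM control libraries was that of the cap gene Psme1, 122 CPM per kb. The alpha ring genes Psma7 and Psma4 followed at 80.8 and 80.1 CPM per kb, and Psmd4, a ubiquitin receptor of the regulatory particle, was at 72.9 CPM per kb. The lowest of the broadly expressed genes were 3 that encode assembly chaperones of the regulatory particle: Psmd9 at 2.59, Psmd5 at 5.25 and Psmd10 at 6.49 CPM per kb. Psma8, known from testis, and Psmb11, known from the thymus, were at 0 to 4.5 CPM and 0 to 3.3 CPM, so their fitted fold changes rest on few counts.

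In interstitial macrophages the summed level of the 43 genes was lower in every Hif1a-deleted library than in every control library. Among the controls IM648 had 2325, IM659 had 2358 and IM660 had 2406 CPM. Among the deleted libraries IM649 had 1701, IM650 had 1679 and IM661 had 1836 CPM. The group means were 2363 ± 41.2 and 1739 ± 85.0 CPM (SD, n = 3 each), a sum 26.4% lower. As an unscaled share of all gene counts, the 43 genes took 0.226 to 0.232% in IM control and 0.150 to 0.188% in IM deleted libraries, which again did not overlap.

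In nonclassical monocytes the deleted libraries were also lower, by a size that depended on the scaling. The sums were 2191, 2248 and 2205 CPM in the NCM control libraries RM648, RM657 and RM659. They were 1788, 1845 and 1934 CPM in the NCM deleted libraries RM649, RM650 and RM661. The means were 2215 ± 30.1 and 1856 ± 73.2 CPM, a sum 16.2% lower, and the libraries did not overlap. Values of single libraries are listed in these orders throughout. With RLE factors in place of TMM the sum was 7.04% lower, and as an unscaled share of gene counts the groups overlapped, at 0.205 to 0.218% in control and 0.195 to 0.206% in deleted libraries. Without the immunoproteasome genes, the sum of the other 38 was 12.3% lower with TMM. It was 2.69% lower with RLE factors, where the libraries overlapped. As an unscaled share these 38 averaged 0.184% in NCM control and 0.183% in NCM deleted libraries.

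**Figure D1:**
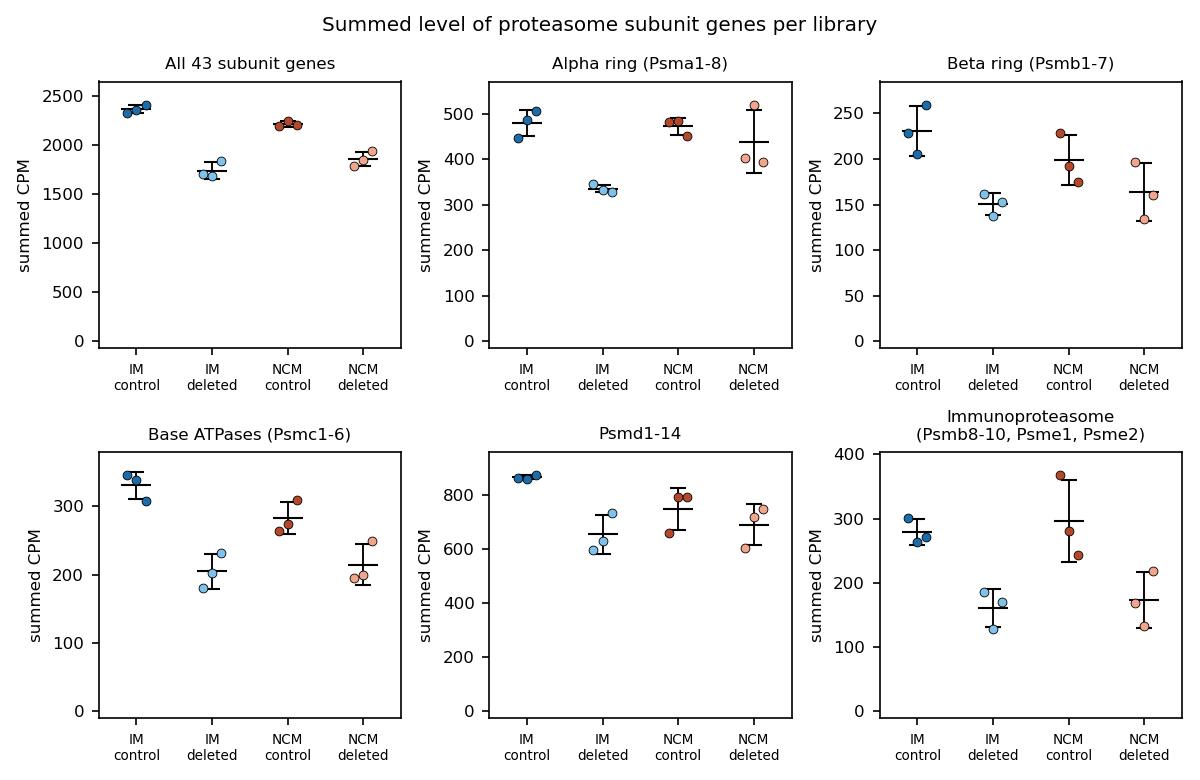
Summed TMM-scaled CPM of all 43 proteasome genes and of 5 groups of them (y axes, from 0) in each library (points) of the 4 groups (x axis, 3 libraries each), with the group mean and SD as bars. In IM every deleted library lies under every control library in all 6 panels; in NCM this holds for all 43 genes, the base ATPases and the immunoproteasome.

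No single subunit gene passed the test for the deletion in IM. In edgeR's quasi-likelihood test, 0 of 43 had an adjusted p under 0.05, where 0.288% of all genes tested did. At an unadjusted p under 0.05 there were 6 of 43, beside 9.84% of all genes, and DESeq2 called 0 members. The fitted log2 fold change was below 0 for 39 of 43, against 46.8% of all genes, and its median was -0.50 against 0.07 over all genes. The control and deleted libraries did not overlap for 21 members that were lower in the deleted libraries, beside 13.4% of all genes. They did not overlap for 2 members that were higher, Psme4 and the sparsely counted Psmb11, beside 16.2% of all genes. Most members thus lay on the same side of 0, while most of their own intervals included 0.

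By role, all 8 alpha ring genes were below 0 in IM (median -0.55), as were all 7 constitutive beta ring genes (median -0.78) and all 6 base ATPases (median -0.68). Over all genes 46.8% were below 0 (median 0.07). Control and deleted libraries did not overlap for any of the 6 ATPases, which were lower in deleted libraries, beside 13.4% of all genes. Of the 14 Psmd genes 12 were below 0 (median -0.44). Of the 4 Psme genes 3 were below 0 (median -0.34). The groups of subunits that make up the core and the base thus lay to the same side.

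**Figure D2:**
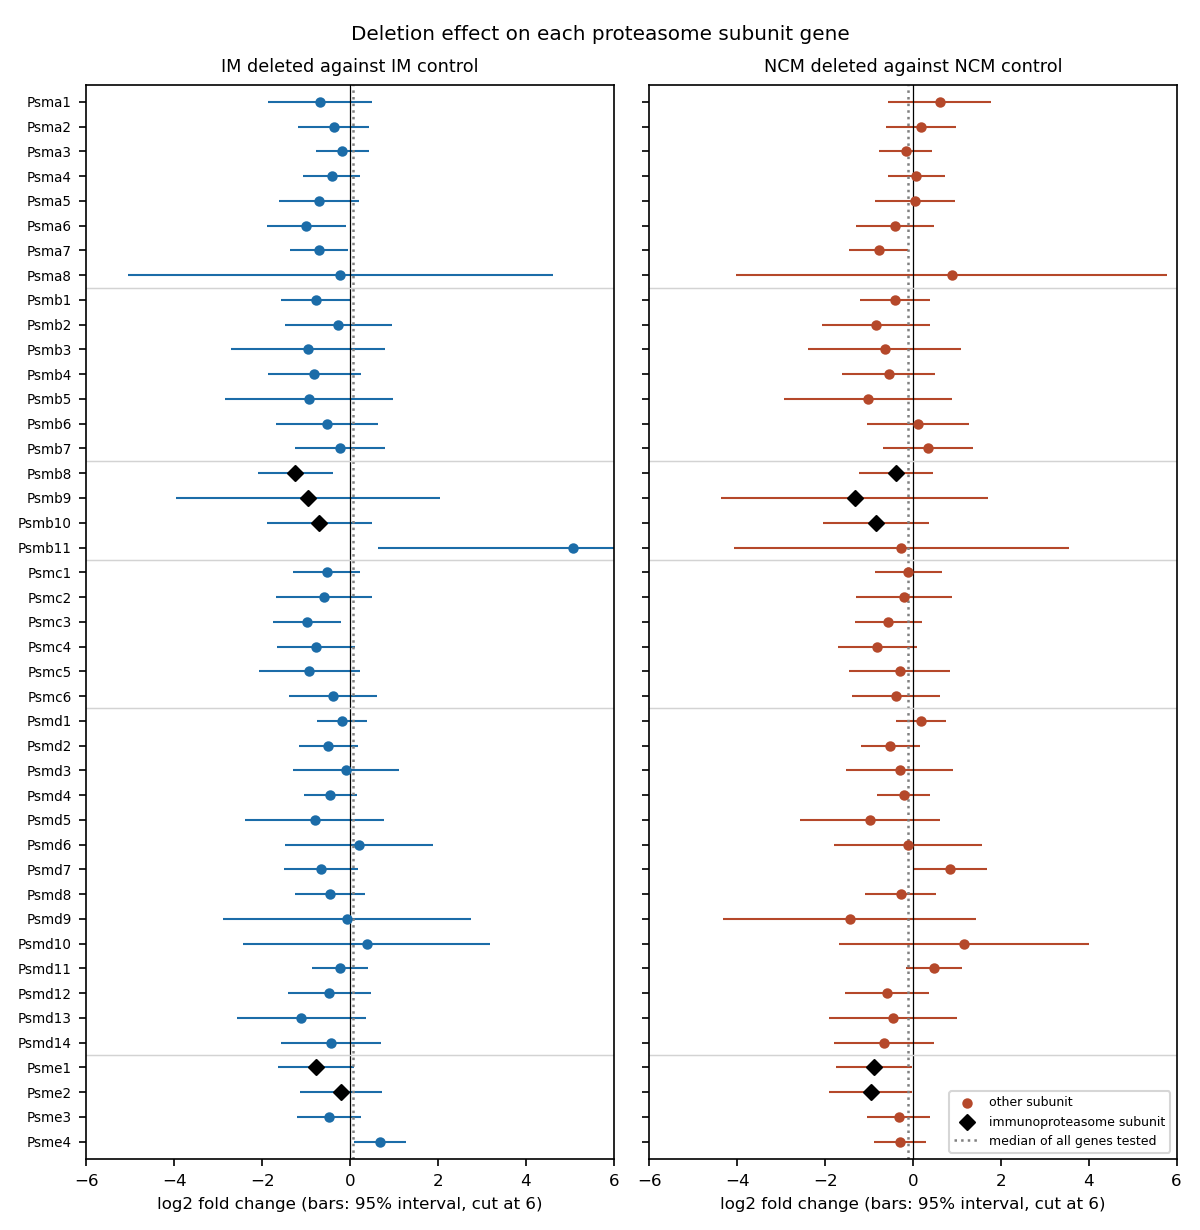
Log2 fold change of deleted against control (x axis) for each of the 43 genes (y axis, ordered by role, with grey lines between roles) in IM (left) and NCM (right); bars are 95% intervals of the edgeR fit, black diamonds are immunoproteasome genes and the dotted line is the median of all genes tested. In IM 39 of 43 points lie left of 0, in NCM 32 of 43; Psma8, Psmb11 and Psmb9 have the widest bars in IM.

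Psmc3, an ATPase of the base, had 101, 95.6 and 85.3 CPM in the IM control libraries and 41.4, 44.6 and 56.8 CPM in the IM deleted ones. The groups did not overlap, and the log2 fold change was -0.98 ± 0.36 (SE) with an adjusted p of 0.326. Psma6, an alpha ring gene, had 63.4, 55.9 and 67.6 CPM in control and 24.6, 28.9 and 40.1 CPM in deleted libraries. Its groups did not overlap either, with a log2 fold change of -0.998 ± 0.42 and an adjusted p of 0.427. When the 6 IM libraries were fitted alone, these 2 genes passed the threshold. Psma7, also of the alpha ring, averaged 73.8 ± 10.8 and 45.1 ± 6.21 CPM (log2 fold change -0.71 ± 0.31, adjusted p 0.446). Psmd13, a subunit of the lid, had 33.6, 69.0 and 49.3 CPM in control and 20.2, 26.3 and 24.0 CPM in deleted libraries. Its log2 fold change was -1.11 ± 0.69 (adjusted p 0.708), and the groups did not overlap. Of its exon bases, 152 overlap Sirt3 on the other strand.

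Psme4, which encodes the large single-chain activator PA200, lay the other way. It had 89.6, 119 and 140.5 CPM in the IM control and 189, 204 and 168 CPM in the IM deleted libraries. All deleted libraries were above all controls, with a log2 fold change of 0.68 ± 0.28 and an adjusted p of 0.398. Psme4 has the longest exon sequence of the 43 genes, 6491 bases. Psmb11 had 0, 0 and 2 counts in control and 13, 25 and 13 counts in deleted libraries, a ratio of 43.7 per scaled library size with a 95% interval of 11.5 to 370.5 that covers counting error only.

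Other measures of the IM libraries moved with genotype beside these results. The non-exonic shares given above did not overlap between IM control and IM deleted, so that share and genotype cannot be told apart in IM. With the share as a covariate, 29 of 43 members were below 0 with a median of -0.35, against a median of 0.52 over all genes. Malat1, a nuclear RNA, took 0.862 to 1.68% of gene counts in IM control and 4.34 to 4.57% in IM deleted libraries. Of the 3 nuclear RNAs listed, Malat1, Neat1 and Kcnq1ot1, all 3 passed edgeR's test as higher in IM deleted libraries (median log2 fold change 2.43). In NCM 0 of 3 passed (median 0.45). The share of all genes that passed was 0.288% in IM and 0.421% in NCM. The log2 fold change also varied with exon length. Genes were split into 5 bins of like size by exon length. In the bin with the shortest exons, up to 1717 bases, the median over all 2522 genes was -0.36 in IM, and in the bin with the longest it was 0.45. Of the 43 members 27 were in the shortest bin, with a median of -0.69 and 25 of 27 below 0. In the next 2 bins the members had medians of -0.47 (7 genes) and -0.30 (6 genes), beside -0.18 and -0.04 over all genes. The members were therefore lower than genes of like length in each of these 3 bins, as a description with no test. In the 2 longest bins they were higher, at 2.13 (2 genes, among them Psmb11) and 0.68 (1 gene, Psme4), beside 0.11 and 0.45. In NCM the members of the shortest bin had a median of -0.39, close to the -0.41 of all genes there. In the other 4 NCM bins, by rising length, members were at -0.41, 0.01, -0.62 and -0.29, beside -0.30, -0.15, -0.02 and 0.12 over all genes.

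**Figure D3:**
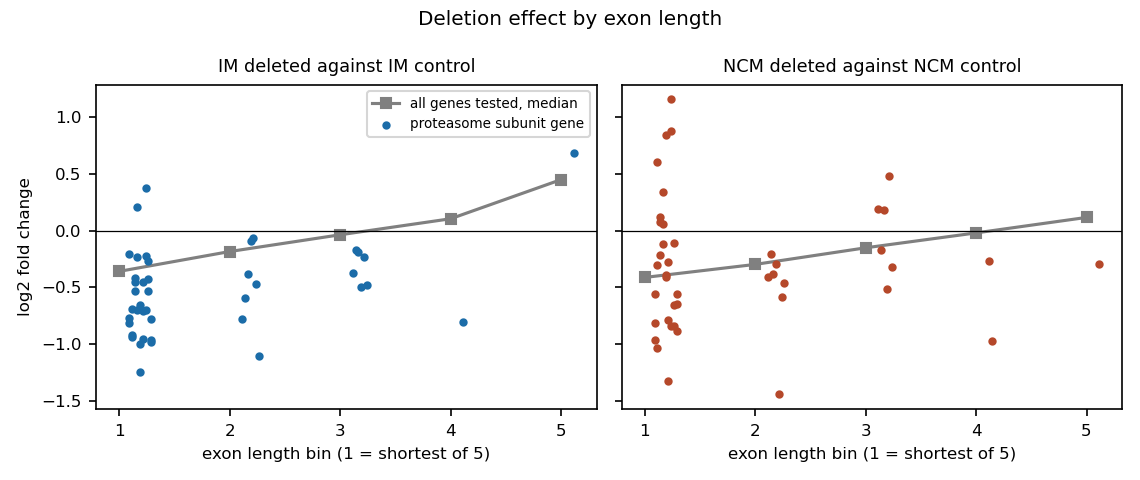
Log2 fold change of deleted against control (y axis) by exon length bin (x axis, 1 is the shortest of 5) in IM (left) and NCM (right): grey squares are medians of all genes tested, points are proteasome genes, and Psmb11 in IM (5.08) is off the scale and left out. In both cell types the median of all genes is lowest for the shortest genes, -0.36 and -0.41, and 27 of the 43 members are in that bin.

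The immunoproteasome genes were at lower fitted levels in deleted libraries of both cell types. All 5 had log2 fold changes below 0 in IM, with a median of -0.78, and all 5 in NCM, with a median of -0.88. In neither did any pass the test. All 5 have exons of 976 to 1628 bases and so were in the shortest bin. Over all genes of that bin the medians were -0.36 in IM and -0.41 in NCM, with 64.1% and 61.9% below 0. With the non-exonic share of reads as a covariate the median in IM turned to 0.098, with 2 of 5 below 0, while in NCM all 5 were below 0 (median -0.86). Their summed level was 278 ± 20.3 CPM in IM control and 161 ± 29.8 in IM deleted libraries, which did not overlap (42.1% lower). In NCM it was 297 ± 63.8 and 173 ± 43.01 CPM, also without overlap (41.6% lower, and 35.1% lower with RLE factors, where 231.6 CPM in the lowest control stood against 231.0 in the highest deleted library).

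Psmb8 (LMP7, the inducible beta5 subunit; GRCm38 chr17:34197721-34201454) had 65.5, 86.0 and 61.8 CPM in the IM control libraries and 33.1, 15.3 and 41.7 CPM in the IM deleted ones. The groups were fully separate, with a log2 fold change of -1.24 (95% interval -2.10 to -0.39) and an adjusted p of 0.236, the smallest of the 43 genes in IM. In NCM it had 97.2, 61.7 and 50.5 CPM in control and 55.1, 64.1 and 40.4 CPM in deleted libraries. These overlapped, with a log2 fold change of -0.39 ± 0.39 (adjusted p 0.672).

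Psmb9 (LMP2, the inducible beta1 subunit; chr17:34181987-34187764) had 14.7, 8.49 and 12.2 CPM in IM control and 7.91, 3.29 and 7.04 CPM in IM deleted libraries. These did not overlap (log2 fold change -0.95 ± 1.41, adjusted p 0.979). In NCM it had 56, 109 and 79 counts in control and 0, 0 and 138 counts in deleted libraries. The deleted libraries RM649 and RM650 thus had no count, which allows up to 3 counts or 0.495 and 0.441 CPM, while RM661 was at 12.2 CPM, within the control range of 8.26 to 13.3. The log2 fold change was -1.33 ± 1.43 (adjusted p 0.695). Without RM661, Psmb9 passed the test (adjusted p 0.0155), which then compares controls with libraries at 0. Psmb9 shares 212 exon bases with Tap1, a peptide transporter gene on the other strand, and the strand setting of the counting is not given in the sources used here. Tap1 had 1.98, 45.1 and 48.3 CPM in the 3 NCM deleted libraries and 65.7 to 125 CPM in NCM control.

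Psmb10 (MECL-1, the inducible beta2 subunit; chr8:105935735-105938444) had 24.2, 25.3 and 18.9 CPM in IM control and 10.3, 13.7 and 18.1 CPM in IM deleted libraries. In NCM it had 26.1, 27.8 and 19.6 CPM in control and 6.10, 16.8 and 18.1 CPM in deleted libraries. Neither pair of groups overlapped, with log2 fold changes of -0.70 ± 0.56 (adjusted p 0.849) and -0.84 ± 0.57 (adjusted p 0.502).

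The cap genes Psme1 (PA28 alpha; chr14:55578123-55581529) and Psme2 (PA28 beta; chr14:55587441-55591113) lie close together. Psme1 had 176, 100.3 and 132 CPM in IM control and 94.7, 70.1 and 72.8 CPM in IM deleted libraries, which did not overlap (log2 fold change -0.78 ± 0.40, adjusted p 0.583). In NCM it had 173, 124 and 109 CPM in control and 91.7, 26.3 and 102 CPM in deleted libraries, again without overlap (-0.88 ± 0.41, adjusted p 0.298). The lowest value was that of RM650. Psme2 had 20.9, 42.7 and 46.4 CPM in IM control and 39.7, 25.7 and 29.9 CPM in IM deleted libraries, which overlapped (-0.21 ± 0.44, adjusted p 0.997). In NCM it had 62.6, 53.2 and 54.7 CPM in control and 16.2, 25.4 and 45.6 CPM in deleted libraries, which did not (-0.96 ± 0.45, adjusted p 0.303). Psme3, which encodes the nuclear activator PA28 gamma outside the immunoproteasome, had log2 fold changes of -0.48 ± 0.34 in IM and -0.32 ± 0.34 in NCM (adjusted p 0.783 and 0.683), with overlapping groups in both. Psme4, higher in IM deleted libraries, had 128, 160.5 and 185 CPM in NCM control and 171, 89.0 and 127 CPM in NCM deleted libraries, which overlapped (-0.29 ± 0.28, adjusted p 0.655).

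**Figure D4:**
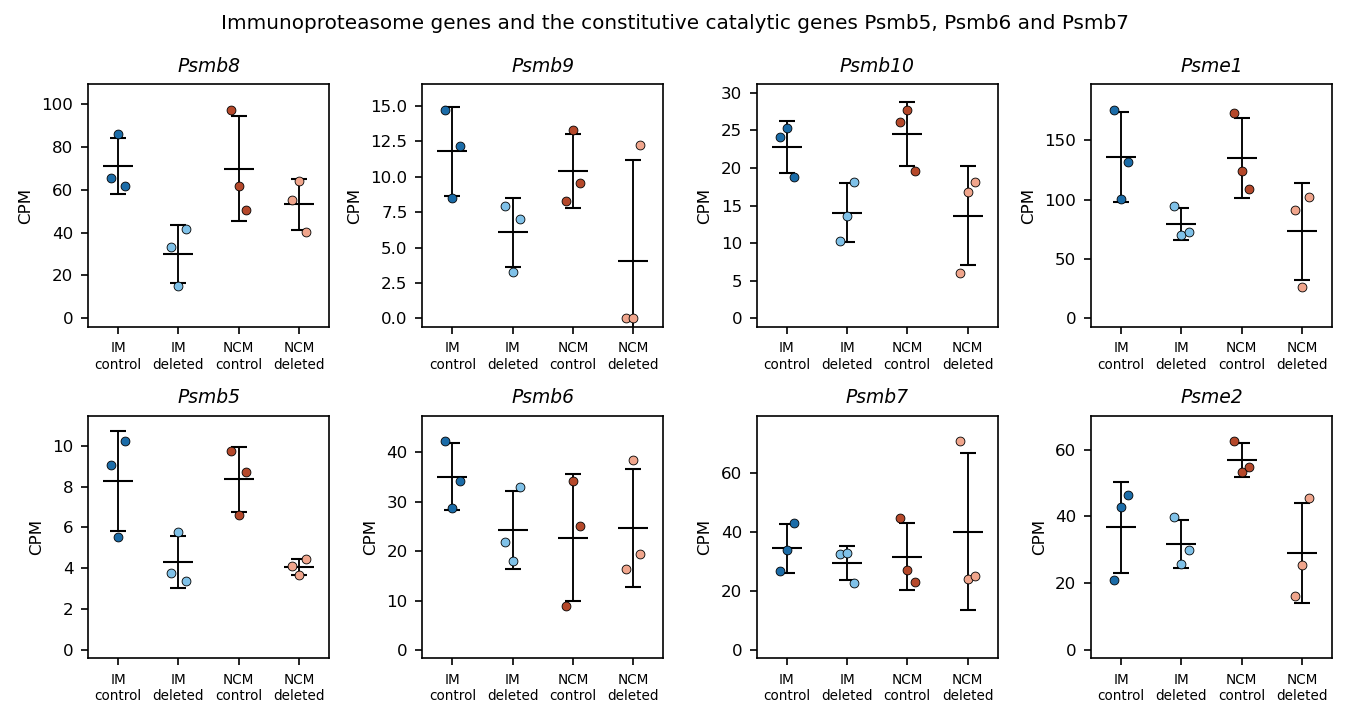
TMM-scaled CPM (y axes, from 0) of the 5 immunoproteasome genes and the constitutive catalytic genes Psmb5, Psmb6 and Psmb7 in each library (points) of the 4 groups (x axis), with the group mean and SD (n = 3). Psmb8 in IM is separate between control and deleted, Psmb9 is at 0 in 2 of 3 NCM deleted libraries, and Psmb6 and Psmb7 overlap between control and deleted in both cell types.

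The constitutive partners were also compared, to see whether the inducible genes moved relative to them. Psmb5, the partner of Psmb8, had 9.05, 5.53 and 10.2 CPM in IM control and 3.77, 5.79 and 3.38 CPM in IM deleted libraries, which overlapped (log2 fold change -0.94 ± 0.90, adjusted p 0.910). In NCM it had 9.74, 6.61 and 8.73 CPM in control and 4.12, 3.67 and 4.44 CPM in deleted libraries, which did not overlap (-1.03 ± 0.90, adjusted p 0.616). Psmb6, the partner of Psmb9, averaged 35.0 ± 6.82 and 24.2 ± 7.85 CPM in IM control and deleted, and 22.7 ± 12.8 and 24.7 ± 11.9 CPM in NCM (-0.53 ± 0.55 and 0.12 ± 0.55, adjusted p 0.927 and 0.945). Psmb7, the partner of Psmb10, averaged 34.6 ± 8.26 and 29.5 ± 5.70 CPM in IM, and 31.7 ± 11.5 and 40.1 ± 26.7 CPM in NCM, where RM649 was at 70.9 CPM (-0.23 ± 0.48 and 0.34 ± 0.48, adjusted p 0.997 and 0.782). Psmb5, Psmb6 and Psmb7 have processed pseudogenes in the annotation, and RefSeq also lists a pseudogene of the alpha ring gene Psma5. How alike these copies are was not measured, so the counts of these genes are uncertain.

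Per kilobase, the inducible member made up most of the beta5 pair and the smaller part of the beta1 pair in every group. Psmb8 was 82.2 ± 6.59% of Psmb8 plus Psmb5 in IM control and 76.5 ± 15.0% in IM deleted libraries, and 81.5 ± 4.68% and 87.4 ± 3.65% in NCM control and deleted libraries. Psmb9 was 16.4 ± 1.37%, 12.9 ± 4.20%, 24.2 ± 9.79% and 9.04 ± 15.7% of Psmb9 plus Psmb6 in the same order. Psmb10 was 37.4 ± 8.55%, 30.0 ± 10.04%, 41.5 ± 6.78% and 28.0 ± 18.1% of Psmb10 plus Psmb7. The shares of control and deleted libraries overlapped for all 3 pairs in both cell types. Within NCM deleted, the share of Psmb9 was 0% in RM649 and RM650, with exact binomial upper bounds of 2.19 and 0.833%, and 27.1% in RM661. The shares depend on which exons are counted as length: with all annotated transcripts the IM control means were 69.3% for Psmb8, 14.6% for Psmb9 and 57.1% for Psmb10, so that the order of Psmb10 and Psmb7 turned.

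**Figure D5:**
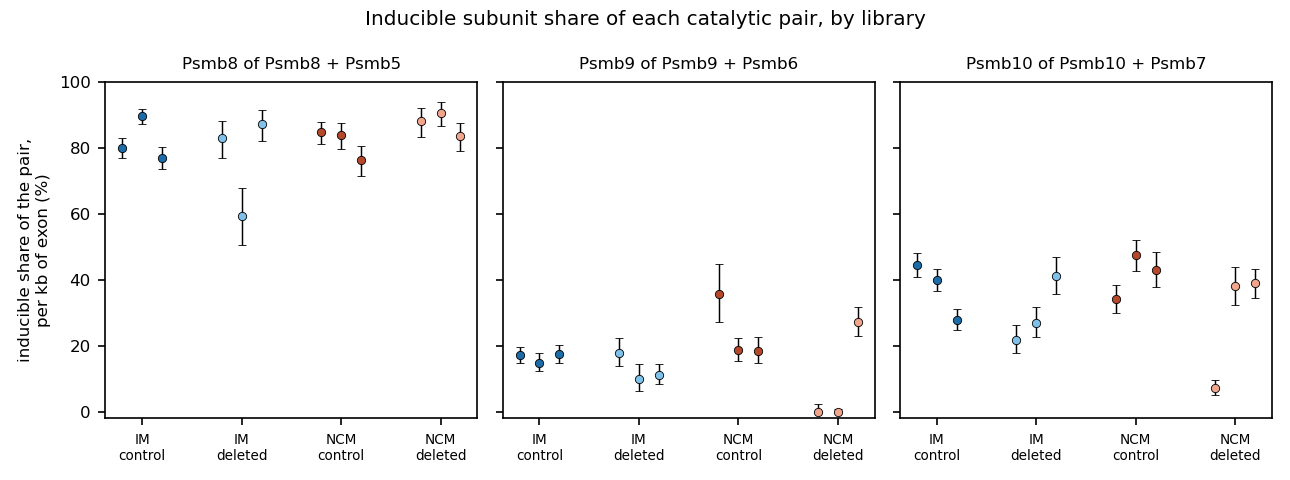
Inducible share of each catalytic pair per kb of exon (y axis, percent) in each library (points) of the 4 groups (x axis); bars are 95% exact binomial intervals of the counts, which cover counting error only. Psmb8 makes up 59.3 to 90.6% of its pair in the 12 libraries, and Psmb9 is at 0 in 2 NCM deleted libraries.

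In nonclassical monocytes 0 of 43 members passed edgeR's test for the deletion, where 0.421% of all genes did. At an unadjusted p under 0.05 there were 4, beside 16.1% of all genes, and DESeq2 called 0 members. The log2 fold change was below 0 for 32 of 43 members, against 54.1% of all genes, with a median of -0.32 against -0.10. RLE factors moved the median of all genes to 0.04 and that of the members to -0.18, so the distance between them was nearly the same. Libraries did not overlap for 7 members that were lower, beside 11.4% of all genes: Psma7, Psmb2, Psmb5, Psmb10, Psmc3, Psme1 and Psme2. They did not overlap for 1 that was higher, Psmd7, beside 5.9% of all genes. These counts stood near the background shares.

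By role, all 6 ATPases (median -0.34) and all 4 Psme genes (median -0.60) were below 0 in NCM, beside 54.1% of all genes (median -0.10). Of the alpha ring genes 3 of 8 were (median 0.06), of the constitutive beta ring genes 5 of 7 (median -0.56) and of the Psmd genes 10 of 14 (median -0.29).

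Psma7 had 85.9, 76.7 and 76.5 CPM in NCM control and 56.1, 30.4 and 52.3 CPM in NCM deleted libraries. Its log2 fold change was -0.78 ± 0.31 with an adjusted p of 0.227, the smallest of the 43 genes in NCM, and its direction was that seen in IM. Psmd7, a lid subunit that pairs with the deubiquitinase Psmd14, had 16.5, 50.4 and 63.4 CPM in control and 67.8, 84.2 and 82.2 CPM in deleted libraries (0.84 ± 0.40, adjusted p 0.308). All deleted libraries were above the controls, and the lowest control was RM648. Psmd9 had 55, 53 and 75 counts in control and 0, 4 and 90 counts in deleted libraries, and Psmd10 had 1, 124 and 71 counts in control and 301, 2 and 42 in deleted libraries. Their log2 fold changes, -1.44 ± 1.36 and 1.16 ± 1.34, were close in size to their errors (adjusted p 0.645 and 0.722), and that of Psmd10 was -1.96 without RM649.

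Spread was larger in NCM deleted libraries than in the other groups, for proteasome genes and for all genes alike. Among the 33 members with at least 20 CPM on average, the median coefficient of variation was 18.4 and 19.4% in IM control and IM deleted, and 22.2 and 43.6% in NCM control and NCM deleted. The same over 6377 genes was 16.6 and 20.4% in IM and 24.5 and 43.7% in NCM. Psmc6, a base ATPase, shows it, at 75.6, 11.9 and 48.7 CPM in the 3 NCM deleted libraries against 52.4, 62.9 and 62.7 in control. Sums of endothelial and of pan-leukocyte markers did not overlap between NCM control and NCM deleted libraries. Those of epithelial and of fibroblast and smooth muscle markers overlapped. In IM the pan-leukocyte sums did not overlap either. The 12 endothelial markers, including Cdh5 and Pecam1, summed to 937 to 2453 CPM in NCM control and 3157 to 7389 CPM in NCM deleted libraries. All 12 had counts in both groups and log2 fold changes above 0 in NCM (median 1.78). In IM they summed to 793 to 2414 and 837 to 2945 CPM, with 7 of 12 above 0 (median 0.08). The 8 epithelial markers summed to 329 to 2122 CPM in NCM control and 1769 to 2680 in NCM deleted libraries, with 7 of 8 log2 fold changes above 0 (median 0.70). The 7 fibroblast and smooth muscle markers summed to 69.5 to 147 and 106 to 373 CPM, with 6 of 7 above 0 (median 0.49). The 4 pan-leukocyte markers summed to 7585 to 8782 CPM in NCM control and 2332 to 6255 in NCM deleted libraries, with 0 of 4 above 0 (median -0.88), and to 11273 to 12950 and 6590 to 7910 CPM in IM. All markers of these 4 lists had counts in every group, none passed the test for the deletion, and their part in the results was not tested.

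The test of whether the deletion effect differed between the cell types called 0 of 43 members and 0% of all genes in edgeR. At an unadjusted p under 0.05 there were 2 members, beside 8.92% of all genes, and DESeq2 called 0 members. The difference was below 0 for 18 of 43 members, beside 56.7% of all genes. That count was 11 with RLE factors, beside 51.4% of all genes, 10 with DESeq2, beside 51.5%, and 10 with no filter, beside 50.8%. It was 9, 10 and 11 without IM661, IM659 and RM650, beside 49.6, 51.3 and 55.9% of all genes. The 2 were Psmd7, whose effect was 1.503 ± 0.56 higher in NCM than in IM on the log2 scale (adjusted p 0.482), and Psme4, whose effect was 0.98 lower (-0.98 ± 0.40, adjusted p 0.513). For Psmb8 the difference was 0.85 with a 95% interval of -0.34 to 2.04, which includes 0. For Psmb11 and Psmd9, with few counts in several libraries, it was -5.34 ± 2.66 and -1.38 ± 1.89 (adjusted p 0.584 and 0.889).

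Between the cell types, in control mice, no proteasome gene passed the test. Of 43 members 0 passed edgeR's test of IM control against NCM control, where 7.48% of all genes did. At an unadjusted p under 0.05 there were 2, beside 20.1% of all genes, and DESeq2 called 0. The median log2 fold change was 0.13 over the members, 14 of 43 of them below 0, and 0.06 over all genes, 47.5% of them below 0. It was 0.24 without IM659, with 9 members below 0, 0.07 without RM659, with 19 below 0, and 0.21 with RLE factors, where the median of all genes was 0.14. Libraries did not overlap for 6 members higher in IM (Psma4, Psmb4, Psmc3, Psmd1, Psmd2 and Psmd7), beside 18.6% of all genes, and for 1 member lower in IM (Psme2), beside 17.2%. Psmd7 had 82.0, 99.9 and 67.6 CPM in IM control against the NCM values above (0.94 ± 0.40, adjusted p 0.189). Psma4, an alpha ring gene, had 84.9, 92.9 and 102 CPM in IM control and 48.8, 81.7 and 47.4 CPM in NCM control (0.65 ± 0.31, adjusted p 0.247); 114 of its exon bases overlap another gene. Psmd1, a scaffold of the base, averaged 136 ± 15.1 and 94.4 ± 13.6 CPM (0.53 ± 0.27, adjusted p 0.301). Psmb11 had 2 counts in all in IM control and 14 in NCM control, a ratio of 0.0833 with a 95% interval of 0.00919 to 0.363 from counting error.

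In the deleted mice 0 of 43 members passed for IM against NCM, where 4.57% of all genes did, with 1 at an unadjusted p under 0.05 beside 15.4% of all genes and 0 in DESeq2. The median was -0.03 over the members, 24 of 43 of them below 0, and 0.14 over all genes, 44.5% of them below 0. Without IM649, IM650 and RM661 the direction turned, to medians of 0.02, 0.03 and 0.13 over the members. Without IM659 and IM661 the medians were further below 0, at -0.12 and -0.25. IM659 is a control library and enters here only through the shared filter, scaling and fit. Without single libraries, 19 to 29 members were below 0. Libraries did not overlap for 2 members lower in IM (Psmd7 and Psmd11), beside 6.25% of all genes, and for 1 higher (Psmb11, at 51 counts in all against 10), beside 16%. Psmd11, a subunit of the lid, had 54.8, 45.3 and 52.8 CPM in IM deleted and 98.5, 93.7 and 58.1 CPM in NCM deleted libraries (-0.71 ± 0.30, adjusted p 0.247). Psmb8 was at -0.82 ± 0.40 (adjusted p 0.341), Psme4 at 0.53 ± 0.28 (adjusted p 0.397) and Psmd9 at 1.15 ± 1.35 (adjusted p 0.777), each with groups that overlapped. IM and NCM were sequenced on different lanes, so cell type and lane cannot be told apart. Within a cell type both genotypes shared lanes, with 1 library of one genotype and 2 of the other on each lane. On the 2 IM lanes the median difference of the members was -0.57 and -0.59, beside 0.08 and 0.02 over all genes. There 36 and 34 of 43 members were below 0. On the 2 NCM lanes it was -0.46 and -0.49, beside -0.23 and -0.06 over all genes, with 28 of 43 members below 0 on each.

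Genes that work beside the proteasome were counted from lists, each tested over all genes. In either deletion comparison, 0 of 10 genes of peptide loading and MHC class I, 0 of 12 of ubiquitin supply and delivery, 0 of 14 of assembly and associated factors and 0 of 8 transcription factors passed, beside 0.288% of all genes in IM and 0.421% in NCM. In IM the class I list was below 0 for 10 of 10 genes (median -0.64) and the ubiquitin list for 12 of 12 (median -0.40), beside 46.8% of all genes (median 0.07). In NCM the counts were 8 of 10 (median -0.37) and 9 of 12 (median -0.23), beside 54.1% of all genes (median -0.10). The assembly list had medians of -0.34 in IM and -0.38 in NCM, and the transcription factors 0.08 and -0.39.

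B2m, the light chain of MHC class I, had 906, 830 and 1006 CPM in IM control and 548, 474 and 379 CPM in IM deleted libraries (-0.97 ± 0.25, adjusted p 0.125). Tapbp, which encodes tapasin of the loading complex, averaged 190 ± 21.4 and 97.2 ± 18.3 CPM in IM (-0.97 ± 0.28, adjusted p 0.165). Rps27a, which encodes ubiquitin fused to a ribosomal protein, was at -1.07 ± 0.28 in IM and at -1.17 ± 0.28 in NCM, with adjusted p values of 0.122 and 0.0579. H2-D1, a class I heavy chain, had 1569, 1412 and 1265 CPM in NCM control and 592, 772 and 679 CPM in NCM deleted libraries (-1.06 ± 0.24, adjusted p 0.057). None of these passed the threshold. They were named for being among the smallest p of the lists, so their separation adds no support. The libraries of each named pair of groups did not overlap, beside 13.4% of all genes lower without overlap in IM and 11.4% in NCM. Of the class I list, Tap1, Tap2, Erap1 and H2-K1 overlapped in IM, and Tap2, Tapbp, Erap1, Canx and Pdia3 in NCM.

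Between the control cell types 4 genes of these lists passed, all higher in IM, beside 7.48% of all genes: 1 of 8 transcription factors and 3 of 10 class I genes. They were Ciita, the activator of MHC class II genes (log2 fold change 2.56, adjusted p 0.0126), and the chaperones Calr (0.91, adjusted p 0.019), Canx (0.95, adjusted p 0.0218) and Pdia3 (0.83, adjusted p 0.0236) of glycoprotein and class I folding. The non-exonic shares of the control groups, 38.5 to 44.2% in IM and 58.1 to 66.8% in NCM, did not overlap. Share and cell type thus cannot be told apart in control mice. With the share as a covariate 28 of all genes passed in this comparison, in place of 1066. Whether these 4 genes are among the 28 is not given here. In the deleted mice Ciita passed again (2.75, adjusted p 0.0112), beside 4.57% of all genes.

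Because the deletion was aimed at Hif1a, promoters were searched for the core of the HIF binding motif, and for motifs of NRF, interferon and general factors. RefSeq promoters of GRCm38.p6 were found for 36 of 43 members, and the 250 bases before the start were searched on both strands. The HIF core ACGTG was in 8 of 36 (22.2%), against 24.5% of the 9727 tested genes with a promoter: Psma1, Psma4, Psma7, Psmb5, Psmb10, Psmd9, Psmd13 and Psme3. TGACNNNGC, the core of the antioxidant response element bound by NRF factors, was in 5 (13.9% against 14.1%), and CCAAT in 14 (38.9% against 39.98%). The core of the interferon-stimulated response element, GAAA followed by 2 bases of any kind and GAAA again, was in 3 (8.33% against 3.30%), none of them of the immunoproteasome, and the STAT motif TTCNNNGAA was in 1, Psmb8 (2.78% against 7.20%). However, the searched windows of Psmb8 and Psmb9 lay in annotated exons over 250 of 250 bases, and that of Psme1 over 139. For these genes a match, or the lack of one, does not describe sequence outside exons. In IM the 8 members with ACGTG had a median log2 fold change of -0.69 (-1.11 to -0.06, 8 below 0). The 28 without it had -0.48 (-1.24 to 5.08, 24 below 0). In NCM the medians were -0.62 (-1.44 to 0.60, 6 below 0) and -0.30 (-1.33 to 1.16, 22 below 0). The ranges overlapped in both, and the difference was not tested. Of the 8, the windows of Psma4 and Psmd13 were exonic over 250 of 250 bases, and that of Psma7 over 206. The windows show matches in an inducible gene (Psmb10), in constitutive catalytic genes (Psmb5 and Psmb6) and in an activator gene (Psme3), with matches in capitals; where 2 matches on opposite strands overlap, the capitals cover both. Psmb10 has the HIF core (chr8:105938453-105938542, minus strand), Psmb5 the HIF and the antioxidant core (chr14:54618026-54618115, minus strand), Psmb6 the antioxidant core (chr11:70525267-70525356, plus strand) and Psme3 the HIF core (chr11:101316123-101316212, plus strand).
Psmb10: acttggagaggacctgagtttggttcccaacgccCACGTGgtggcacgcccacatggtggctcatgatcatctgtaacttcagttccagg
Psmb5: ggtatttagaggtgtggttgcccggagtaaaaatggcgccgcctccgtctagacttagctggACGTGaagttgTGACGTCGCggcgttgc
Psmb6: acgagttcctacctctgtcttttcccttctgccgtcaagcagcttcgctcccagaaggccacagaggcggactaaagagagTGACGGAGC
Psme3: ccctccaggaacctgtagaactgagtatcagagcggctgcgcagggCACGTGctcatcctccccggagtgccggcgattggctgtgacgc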

How the data were processed

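The deposited files hold the authors' raw read counts per gene, 1 file per library, neither normalized nor filtered. The submitters' processing notes name HTSeq 0.6.0, TopHat2 2.1.1, cutadapt 1.12 and GRCm38 (mm10), with options, annotation and strand setting not given in the sources used here. Per the labels' protocols libraries came from a low-input kit for stranded total RNA, which retains unspliced transcripts, so reads outside exons lower the exonic depth.

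Counts were analysed in R 4.3.3 with edgeR 4.0.16: filterByExpr (minimum count 10), TMM scaling, and a robust quasi-likelihood fit of 4 group means over all 12 libraries, with two-sided tests and Benjamini-Hochberg adjustment over 14254 genes, threshold 0.05. Errors of fold changes are SE and those of levels SD. DESeq2 1.42.0 and the other alternatives are in the closing section. The code was tested on simulated data. Exon lengths and overlaps came from GENCODE M21 (43 of 43 members matched). Figures used matplotlib 3.10.9 in Python 3.11.15. Lanes were read from the names of the deposited files.

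Named are the immunoproteasome genes, their partners, Psme3, Psme4, and in each comparison the 3 members with the largest change and the 3 with the smallest p; other members named with values, among them Psmc6 and Psmd4, were chosen after their values were seen. The members and all lists were chosen with earlier results of these data known.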

Additional observations from a re-analysis of the deposited data

How the results depend on the processing

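The count of members past the threshold stayed at 0 in all 5 comparisons with DESeq2, RLE factors, no filter on low counts and the non-exonic share as a covariate, and with lane as a covariate in the 3 comparisons where it could be fitted. Fitting only the groups compared gave 2 members in IM (Psma6 and Psmc3). Leaving out each library in turn gave 0 to 1 member in NCM and 0 to 1 in IM deleted against NCM deleted, where the 1 was Psmb9 without RM661 in both. The median of the members in IM was between -0.71 and -0.49 when single libraries were left out, with -0.71 without IM661. With the non-exonic share as a covariate the median of IM control against NCM control was -0.048, with 28 of all genes called in place of 1066. Under the same covariate the log2 fold changes of Psmb9, Psmb10 and Psme2 in IM turned to 5.67, 0.10 and 0.78. In NCM without single libraries, Psmb6 ranged from -0.35 (without RM650; -0.26 without RM648) to 0.54, Psmd10 from -1.96 (without RM649) to 2.02 and Psmb7 from -0.36 (without RM649) to 0.67. The cause of these shifts was not tested.

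Over all genes, calls for the deletion numbered 41 in IM and 60 in NCM with edgeR, and 440 and 1093 with DESeq2. Without single libraries they ranged from 0 to 234 and from 4 to 570. In IM they were 950 with only the groups compared, 77 with no filter, and 0 with lane or the non-exonic share as a covariate. In NCM they were 0, 153, 3 and 351 under the same settings. Of the 60 calls in NCM 48 were lower, but with RLE factors 31 of 59 were.

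Some sample numbers recur in IM and NCM, and the main fit did not take them as pairs. Deviations of same-numbered libraries correlated by -0.07 to 0.08, and those of differently numbered libraries by -0.10 to 0.09. With all correlations this near 0, the check cannot tell whether libraries of the same number came from the same animal. With a replicate block, 0 members passed in the difference of effects (median 0.07), in IM control against NCM control (median 0.10, 289 genes called in place of 1066) and in IM deleted against NCM deleted (median 0.11, 397 in place of 652). Intervals on counts cover counting error only, since reads are not separate molecules.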
